A study of Mus musculus with 10 samples.

Results

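The circadian clock genes described here are Clock, Arntl, Per1, Per2, Per3, Cry1, Cry2, Nr1d1, Nr1d2 and Dbp. They were taken by symbol, for their role in the core clock, and all 10 were found among the 16865 genes listed. RNA of 10 leukemic spleens of C57BL/6 mice was sequenced in bulk. Each spleen came from a sub-lethally irradiated recipient of intravenously injected T cell acute lymphoblastic leukemia (T-ALL) that carried a conditional Sirt1 allele, so the allele was present in both groups. The control group (n = 5) had received corn oil by intraperitoneal injection, and the Sirt1 deleted group (n = 5) had received 3 mg of tamoxifen per mouse in corn oil. No group had tamoxifen without deletion, so the drug and the deletion cannot be told apart. The Cre driver, the age of the mice, the hour of collection and the leukemia that each recipient carried are not given in the sources used here. All p-values below rest on the spread among these spleens alone, some of which may be technical.

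The circadian clock is a feedback loop of transcription that runs in nearly every cell. CLOCK and BMAL1, the product of Arntl, bind E-boxes together and drive the Per and Cry genes, whose proteins return to the nucleus and repress them. In a second loop the nuclear receptors REV-ERB alpha (Nr1d1) and REV-ERB beta (Nr1d2) repress Arntl through ROR elements, and DBP, itself driven through E-boxes, acts on D-boxes in genes such as Per3. SIRT1 is a NAD-dependent deacetylase known to act on clock proteins, among them BMAL1 and PER2. Lymphoid tissues have a clock, and the amplitude of their rhythm is known to be lower than in liver. With 1 time point per mouse, these libraries give levels and no rhythm.

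Promoter windows that hold the letters of such elements are shown because the members are known to regulate each other through them. RefSeq windows (GRCm38.p6, 250 bases before to 50 after a start) matched 9 members with 13 windows, and Per2 was not matched. The 5 sequences that follow are the 250 bases before the start, 5′ to 3′ on the strand of the gene, with E-boxes and D-boxes in capitals.
Cry1, chr10:85185055-85185304, minus strand: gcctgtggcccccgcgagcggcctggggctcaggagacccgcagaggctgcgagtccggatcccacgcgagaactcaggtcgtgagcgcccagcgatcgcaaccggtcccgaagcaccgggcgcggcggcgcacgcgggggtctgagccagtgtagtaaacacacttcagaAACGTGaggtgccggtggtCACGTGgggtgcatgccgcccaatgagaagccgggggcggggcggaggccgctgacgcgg
Cry2, chr2:92434070-92434319, minus strand: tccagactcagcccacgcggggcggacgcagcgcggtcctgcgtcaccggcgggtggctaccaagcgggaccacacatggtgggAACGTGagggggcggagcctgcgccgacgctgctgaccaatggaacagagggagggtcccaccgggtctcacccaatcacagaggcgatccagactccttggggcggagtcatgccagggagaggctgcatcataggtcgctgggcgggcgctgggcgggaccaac
Per1, chr11:69098699-69098948, plus strand: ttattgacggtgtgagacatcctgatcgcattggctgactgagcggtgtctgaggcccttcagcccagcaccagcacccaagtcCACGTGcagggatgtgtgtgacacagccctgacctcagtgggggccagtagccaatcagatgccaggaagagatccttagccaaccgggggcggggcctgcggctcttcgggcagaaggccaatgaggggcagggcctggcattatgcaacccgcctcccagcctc
Nr1d1, chr11:98775378-98775627, minus strand: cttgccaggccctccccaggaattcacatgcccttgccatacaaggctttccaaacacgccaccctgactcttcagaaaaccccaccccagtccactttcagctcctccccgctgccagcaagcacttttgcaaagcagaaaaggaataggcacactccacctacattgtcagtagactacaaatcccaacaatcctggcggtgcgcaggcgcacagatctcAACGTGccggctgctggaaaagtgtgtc
Per3, chr4:151044666-151044915, minus strand: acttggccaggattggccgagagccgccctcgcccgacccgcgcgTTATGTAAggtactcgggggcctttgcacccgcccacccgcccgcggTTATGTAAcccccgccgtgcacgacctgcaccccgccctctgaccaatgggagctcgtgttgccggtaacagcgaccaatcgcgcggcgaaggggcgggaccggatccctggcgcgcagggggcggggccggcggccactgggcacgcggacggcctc

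Cry1 held the canonical E-box CACGTG 60 bases before its start and the non-canonical E-box CACGTT, here read from the other strand, 79 bases before it. Per1 held CACGTG 166 bases before the start. Non-canonical E-boxes lay 166 bases before the start of Cry2 and 28 bases before that of Nr1d1. Per3 held the D-box TTATGTAA at 205 and again at 158 bases. In Arntl a core of the ROR element (TAGGTCA or TGGGTCA, either strand) lay 30 bases after the second of 2 listed starts. It is shown with its flanks, the core in capitals.
Arntl, chr7:113207531-113207557, plus strand: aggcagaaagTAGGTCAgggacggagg

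Searched on both strands, CACGTG was in 2 of the 9 matched members and in 8.09% of all genes with a window, and CACGTT in 3 of 9 against 5.44%. The D-box (TTATGTAA or TTACGTAA) was in 1 of 9 against 1.23%, the ROR core in 1 of 9 against 7.35%, and the cyclic AMP element TGACGTCA in 0 of 9 against 2.03%. Clock, Dbp and Nr1d2 had none of these letters in their windows. The motifs do not overlap each other, and a match is a description of the letters only.

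The deposited values are normalized counts, read estimates per gene scaled between libraries by the authors. They summed to 33.6 M to 34.8 M per library, and the steps between low values put the depth at about 21.2 M to 44.3 M reads. Sirt1 lay between 1126 and 1348 in the control libraries and between 710 and 1071 in the deleted ones (log2 difference -0.44, limma adjusted p = 0.0125), with no overlap. The deleted libraries thus kept 74.4% of the control mean, and after the correction for transcript length described below the difference was -0.26 (limma adjusted p = 0.0313). Markers of T-ALL cells were abundant, their sum over 12 genes lying between 250964 and 282146 in control and between 241920 and 275743 in Sirt1 deleted libraries. Of these 12, Cd3g (0.27) and Ptcra (0.36) were called higher and Rag1 (-0.66) and Notch1 (-0.32) lower, 8 did not pass, and after correction Rag1 alone was called. Of 10 macrophage markers 6 were called lower, with sums of 10551 to 15442 in control and 6052 to 9741 in deleted libraries. Of 8 B cell markers 3 were called higher (sums 237 to 308, then 293 to 485), and of 8 neutrophil markers 2 were called higher (1412 to 4071, then 1937 to 8347). Of 8 erythroid markers 2 were called lower (354616 to 445483, then 166392 to 383934). After correction 7 of the macrophage and 5 of the erythroid markers were called lower in limma, and 2 of the B cell markers higher. Of the neutrophil markers 0 were then called (2 at an unadjusted p under 0.05 in limma). For stroma and endothelium 2 of 4 tested markers were called lower, Pecam1 (-0.28) and Col1a2 (-0.27), of which Pecam1 was still called after correction. Col1a1 (0.27) and Pdgfrb (-0.10) did not pass, and Cdh5, Kdr and Col3a1 were below the filter described below. The levels of this list were uneven, with control means of 24160 for Pdgfrb, 3565 for Col1a2 and 2737 for Pecam1. Col1a1 stood at 87.5, Cdh5 at 8.55, Col3a1 at 7.33 and Kdr at 6.24. These markers therefore do not give the amount of stroma or endothelium, and which cells held them was not tested. For NK cells 0 of 2 tested markers were called in limma (0 at an unadjusted p under 0.05). Fits with B cell markers and with macrophage and neutrophil markers as covariates are given below. Beyond these the part of such cells in the values of clock genes was not tested. In bulk tissue fewer cells of a type and less RNA per cell cannot be told apart.

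All 10 clock genes were expressed at measurable levels and passed the filter (at least 5 libraries at 10 or more). Differences are means of log2(value + 1), Sirt1 deleted minus control, so they understate the change of low genes. With a Benjamini-Hochberg adjusted p of 0.05 in limma over 13567 genes, 3 of the 10 fell in the Sirt1 deleted group, namely Clock, Cry1 and Nr1d2, 0 rose, and 7 did not pass. Of all genes tested 32% were called in either direction, 17.5% lower and 14.5% higher. Calls in 3 of 10 members are thus near the share of all genes called in either direction. The count depended on single libraries, being 1 without control library 1, 2 or 4 or deleted library 2 or 5, and 5 without control library 5. The count over all 13567 genes moved as well, from 4344 to 2335, 2200, 3146, 2711 and 3419 in the fits with 1 member called. It was 4712 without control library 5. The median log2 difference of the members was -0.14, against 0.00097 for all genes tested.

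**Figure D1:**
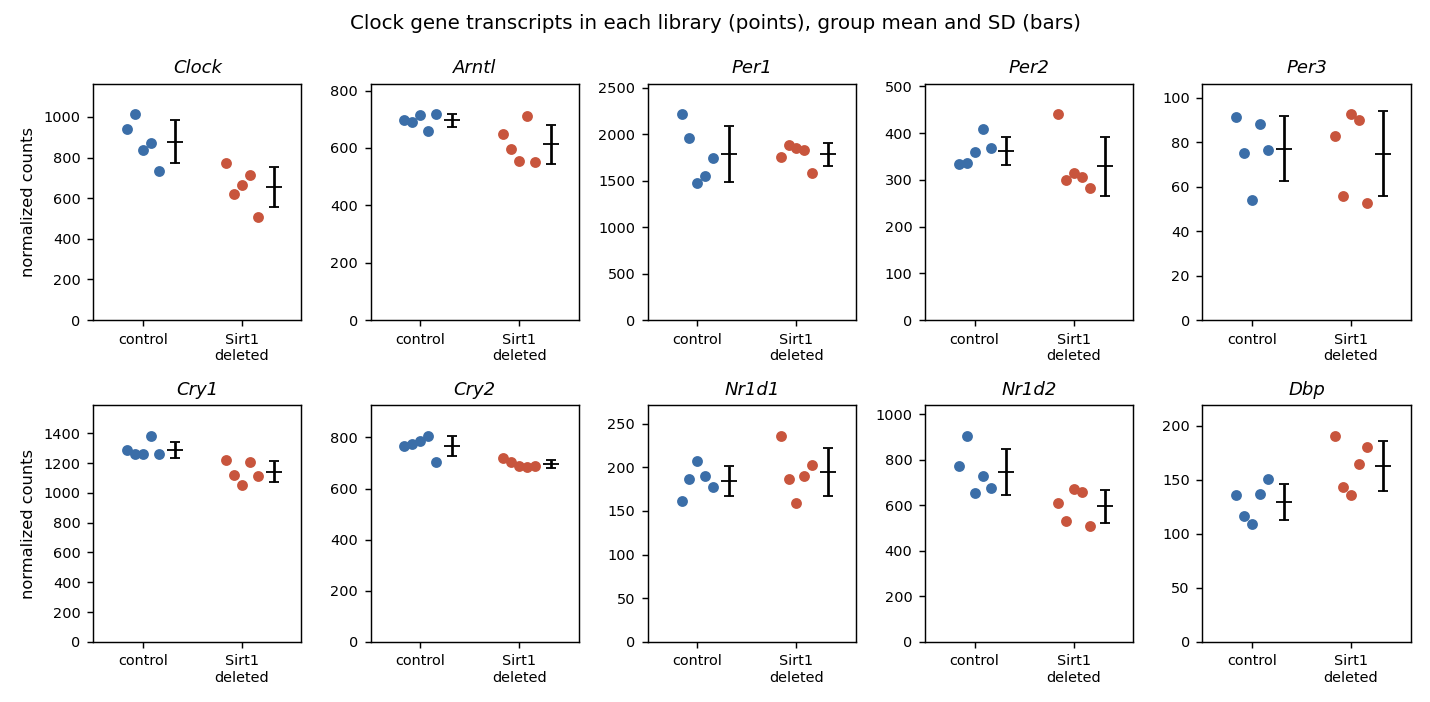
Normalized counts of each clock gene on a linear axis from 0, for 5 control libraries (blue points) and 5 Sirt1 deleted libraries (red points), with the group mean and SD as bars. Cry1 is the member whose groups do not overlap, and Clock shows the largest difference.

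Clock (chromosome 5, 76209868 to 76304792, minus strand, GRCm38) encodes the histone acetyltransferase that partners BMAL1. Control libraries 1 to 5 held 939, 1012, 836, 873 and 732 normalized counts, and Sirt1 deleted libraries 1 to 5 held 771, 623, 663, 714 and 508. Control library 5 lay below Sirt1 deleted library 1, and 4 of the 5 deleted libraries lay below every control. The means were 878 ± 106 and 656 ± 99.4 (SD, n = 5), and Clock fell by 0.43 on the log2 scale (SE 0.113, limma adjusted p = 0.0159, exact permutation p = 0.0159). It passed whichever library was left out, at -0.34 to -0.49.

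Arntl (chromosome 7, 113207465 to 113314126, plus strand) encodes BMAL1, the member without which the clock stops. Its control libraries were nearly level at 697, 692, 715, 660 and 717, while the deleted libraries held 648, 596, 556, 711 and 552. Sirt1 deleted library 4 stood within the control range and the other 4 below it. With means of 696 ± 22.9 and 613 ± 67.2 the log2 difference was -0.19 (SE 0.0775) and did not pass (limma adjusted p = 0.0753, exact permutation p = 0.0476). Without Sirt1 deleted library 4 it was -0.25 and passed (limma adjusted p = 0.0236), as in 1 of 10 fits that each left out 1 library. The relatives of these activators added little. Arntl2, a paralog of Arntl, was near the floor of the test at 12.9 ± 4.71 and 9.65 ± 4.28, and did not pass (limma adjusted p = 0.359). Npas2 was not analysed here.

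Cry1 (chromosome 10, 85131700 to 85185064, minus strand) encodes the strongest repressor of CLOCK and BMAL1, and is the E-box gene printed first. Control libraries held 1288, 1262, 1261, 1381 and 1258, and deleted libraries 1220, 1122, 1052, 1211 and 1111. Every deleted library lay below every control, as for 8.18% of all genes tested, while 8.28% lay wholly above, 16.5% in all. The means were 1290 ± 52.3 and 1143 ± 71.4, so that Cry1 fell by 0.18 (SE 0.0594, limma adjusted p = 0.0388, exact permutation p = 0.00794, which is the lowest value possible with 5 libraries per group). The call was a narrow one. It ended with TMM factors (-0.17, with a limma adjusted p just over 0.05) and with quantile normalization (-0.14, limma adjusted p = 0.0791). It also ended when control library 1, 2, 3 or 4 or deleted library 2, 3 or 5 was left out, with differences of -0.15 to -0.18 and limma adjusted p-values of 0.0582 to 0.0972.

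Cry2 (chromosome 2, 92403646 to 92434043, minus strand), the paralog of Cry1, held 702 to 805 in control and 683 to 718 in deleted libraries. Control library 5 was the low control, and the other 4 lay above every deleted library. The log2 difference of -0.14 (SE 0.0587) did not pass (limma adjusted p = 0.0859, exact permutation p = 0.0238). Without control library 5 it was -0.17 and passed (limma adjusted p = 0.0434), the 1 of 10 libraries whose omission did this. The ratio of Cry1 to Cry2 counts was 1.68 ± 0.0746 in control and 1.64 ± 0.0944 in deleted libraries, so the balance of these 2 repressors differed by less than its spread.

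The Period genes were not called in limma, with 0 of 3 at an unadjusted p under 0.05. Per1 (chromosome 11, 69095217 to 69109960, plus strand), the member with the most normalized counts, had means of 1787 ± 302 and 1780 ± 119. Its control libraries ran from 1473 to 2210 and enclosed the deleted ones, which ran from 1583 to 1881. The log2 difference was 0.01, with a 95% interval from -0.21 to 0.22 (limma adjusted p = 0.96). Per2 (chromosome 1, 91415982 to 91459324, minus strand), whose protein is a reported substrate of SIRT1, held 334, 336, 359, 409 and 367 in control and 440, 300, 315, 306 and 282 in deleted libraries. Sirt1 deleted library 1 was thus the highest of all 10, and the other 4 deleted libraries lay below every control. The log2 difference was -0.15 (SE 0.116, limma adjusted p = 0.331), and without Sirt1 deleted library 1 it was -0.26 and passed (limma adjusted p = 0.0349). Of the 10 fits that each left out 1 library, Per2 passed in this 1 only. Per3 (chromosome 4, 151003652 to 151044665, minus strand), the D-box gene, was the lowest member, at 77.1 ± 14.7 and 74.8 ± 19.2. Both groups ran from just over 50 to just over 90, and its log2 difference of -0.06 had a 95% interval from -0.49 to 0.37. At an estimated 40 to 112 reads per library, counting alone gives Per3 an error of up to 15.8%.

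Of the REV-ERB genes of the second loop 1 was called. Nr1d2 (chromosome 14, 18204054 to 18239127, minus strand) held 771, 903, 652, 729 and 676 in control and 610, 531, 670, 659 and 511 in deleted libraries. Control library 3 lay among the deleted libraries, and the other 4 controls lay above all of them. From 746 ± 99.2 to 596 ± 72.6 Nr1d2 fell by 0.32 (SE 0.104, limma adjusted p = 0.0328, exact permutation p = 0.0317). Without control library 1, 2 or 4 or deleted library 2 or 5 it did not pass, at -0.25 to -0.33 (limma adjusted p = 0.0584 to 0.0877). Nr1d1 (chromosome 11, 98767932 to 98775333, minus strand) held 161 to 207 in control and 159 to 236 in deleted libraries, so the control range lay inside that of the deleted group. Its log2 difference was 0.07 (95% interval -0.18 to 0.32, limma adjusted p = 0.652). The ratio of Nr1d2 to Nr1d1 counts overlapped between the groups, at 3.14 to 4.84 in control and 2.52 to 4.22 in deleted libraries, and a difference between the responses of these 2 genes was not tested. Rora, which encodes an activating receptor that competes with REV-ERB at ROR elements, at 8.10 and 9.48 on average, was below the filter.

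Dbp (chromosome 7, 45705088 to 45710203, plus strand) encodes an output factor with one of the widest daily swings known in liver. Control libraries held 136, 116, 109, 137 and 151, and deleted libraries 190, 143, 136, 164 and 181. Deleted libraries 1, 4 and 5 lay above every control, and control libraries 2 and 3 below every deleted library. From 130 ± 16.7 to 163 ± 23.4 the log2 difference was 0.32 (SE 0.128), the largest upward difference among the members, and it did not pass (limma adjusted p = 0.0676, exact permutation p = 0.0556). It passed in 2 of 10 fits that each left out 1 library. These were without control library 5 (0.38, limma adjusted p = 0.0437) and without deleted library 3 (0.39, limma adjusted p = 0.0377). Its relatives did not pass either. Tef, which binds the same D-boxes, had 618 ± 23.8 and 654 ± 44.4, Nfil3, the D-box repressor, had 174 ± 18.8 and 168 ± 19.8, and Hlf was listed at 0.931 and 1.00 on average, below the filter.

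Dbp, Nr1d1, Cry2 and Arntl share exonic bases with a gene on the opposite strand, and whether strand was used in counting is not given in the sources used here. Dbp shares 539 of 2993 exonic bases with Sphk2, which stood at 1386 ± 38.5 and 1330 ± 91.0 (log2 difference -0.06, limma adjusted p = 0.43). Nr1d1 shares 263 of 3077 with Thra, at 1173 ± 32.8 and 1189 ± 44.3 (log2 difference 0.02, limma adjusted p = 0.795). Cry2 shares 295 of 6320 with the noncoding D930015M05Rik, and Arntl 33 of 7523 with the antisense gene Gm45355. Without strand, reads of such partners cannot be told apart where they overlap.

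Arntl and Dbp stand at opposite ends of the loop, and in tissues with a strong rhythm they peak at different hours. Within each library the ratio of Arntl to Dbp normalized counts lay between 4.76 and 6.53 in control and between 3.06 and 4.33 in Sirt1 deleted libraries, with no overlap. This ratio was chosen after the values were seen and is given as a description. The ratio of Arntl to Nr1d1 overlapped between the groups (3.45 to 4.33 and 2.73 to 3.73). After the correction described next, Arntl stood at -0.15 and Dbp at 0.06, neither called.

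**Figure D2:**
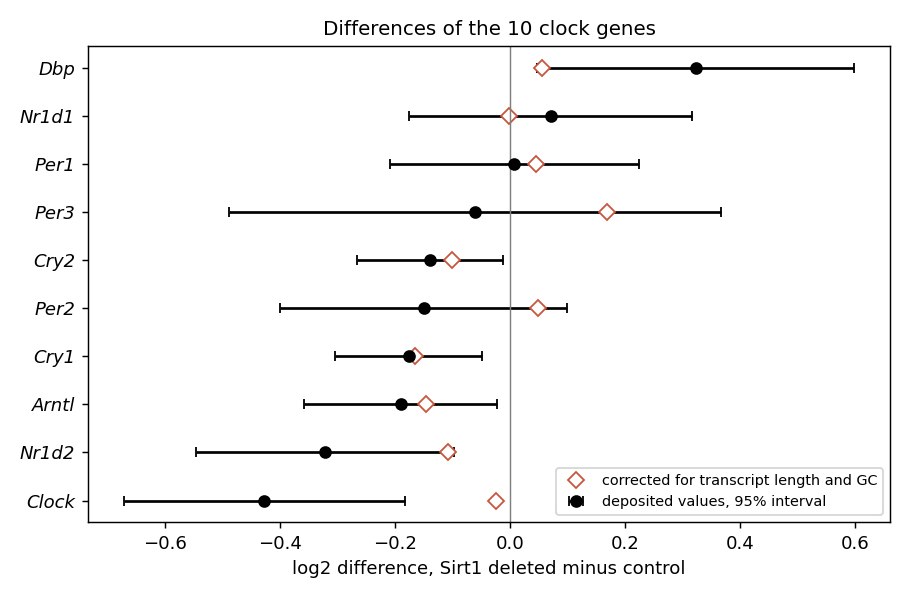
Log2 difference of each clock gene, Sirt1 deleted minus control, with its 95% interval from limma (black), and the difference after each library was corrected for length and GC (open red diamonds). Clock goes from -0.43 to -0.02, while Cry1 goes from -0.18 to -0.16.

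Transcript length moved with the groups in these libraries. The slope of a library's log2 deviations on log2 transcript length lay at 0.0805 ± 0.0497 in control and -0.0805 ± 0.0729 in Sirt1 deleted libraries (SD, n = 5, exact permutation p = 0.00794), so longer transcripts were lower in the deleted group. Clock, with the longest transcript of the members (9744 bases), followed this order nearly library for library. In 43 of 45 pairs of libraries the one with the higher slope had more Clock, including 9 of 10 pairs within the control group and 10 of 10 within the deleted group. Every control slope lay above every deleted slope, so pairs between the groups restate the group difference and only pairs within a group add to it. Within groups Nr1d2 followed the slope in 8 of 10 control and 7 of 10 deleted pairs, Cry1 in 6 and 8, Arntl in 3 and 8, Per2 in 2 and 9, and Cry2 in 5 and 6. Per3 did so in 5 and 7, Per1 in 6 and 4, Nr1d1 in 5 and 6, and Dbp, the shortest (1837 bases), in 2 and 6. Across the 10 members, Spearman's rho between transcript length and log2 difference was -0.47, given as a description of genes measured in the same libraries.

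**Figure D3:**
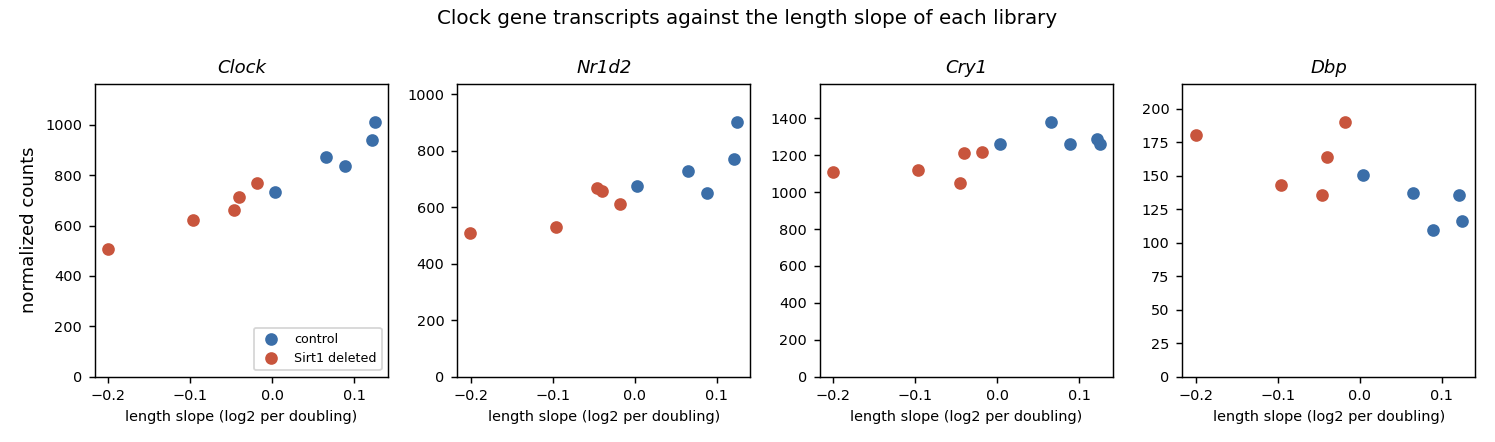
Normalized counts of Clock, Nr1d2, Cry1 and Dbp (linear axes from 0) against the length slope of each library, the change in log2 deviation per doubling of transcript length. Control libraries are blue and Sirt1 deleted libraries red, and within both groups Clock is higher at a higher slope.

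Against genes of like length the members sorted otherwise than by their raw differences. Clock, in the quintile of longest transcripts with a median of -0.27, stood 0.15 below that median. Nr1d2 stood 0.21 below the median of its quintile (-0.11), Arntl 0.18 and Cry1 0.17 below theirs (-0.0054), and Cry2 0.03 below its own (-0.11). Dbp stood 0.22 above the median of its quintile (0.10), Per3 0.21 and Per2 0.12 above that of the longest transcripts, Per1 0.12 above and Nr1d1 0.08 above theirs. These distances were not tested; those of Cry2 and Nr1d1 are smaller than the SE of the gene, and the quintile of longest transcripts runs from 4947 bases upward.

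With length and GC content corrected library by library, 0 of the 10 members were called in limma (1 at an unadjusted p under 0.05), against 14.4% of 13304 genes. The median of the members was then -0.01. Clock stood at -0.02 (limma adjusted p = 0.802) and Nr1d2 at -0.11 (limma adjusted p = 0.306). Cry1 kept most of its difference, at -0.16 (limma adjusted p = 0.0576, exact permutation p = 0.00794), and Cry2 stood at -0.10 (limma adjusted p = 0.201, exact permutation p = 0.0317). Dbp stood at 0.06, and Per3 at 0.17 (limma adjusted p = 0.557). The correction removes any true difference that follows length, and takes the longest coding transcript of each gene. Without the 3 libraries of steepest slope (control libraries 1 and 2 and Sirt1 deleted library 5), 0 members were called (3 at an unadjusted p under 0.05), with Clock at -0.23, Cry1 at -0.18 and Nr1d2 at -0.15. With the mean log2 level of the B cell markers as a covariate 0 members were called in limma (3 at an unadjusted p under 0.05), though the differences were -0.40, -0.20 and -0.26. With the macrophage and neutrophil markers as covariates 0 were called (2 unadjusted), at -0.48, -0.22 and -0.21. Of all 13567 genes tested, 3 were called without the steepest libraries, 1 with the B cell markers and 0 with the macrophage and neutrophil markers. In these 3 settings 0 members called is thus nothing particular to the clock genes.

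**Figure D4:**
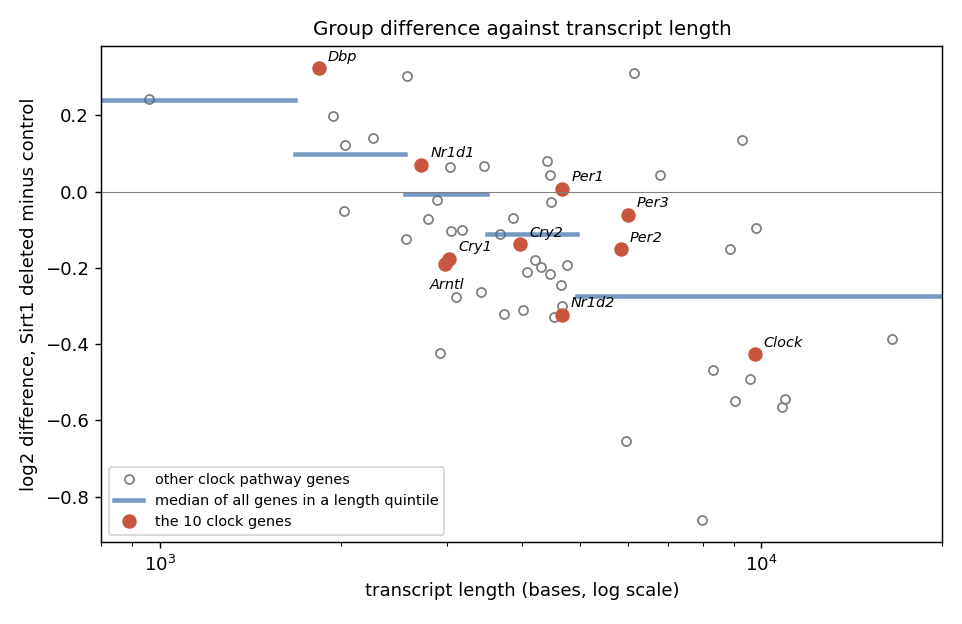
Log2 difference, Sirt1 deleted minus control, against transcript length on a log axis, for the 10 clock genes (red), the other tested genes of the clock pathway (open circles) and the median of all tested genes in each length quintile (blue lines, clipped at the axis). Clock lies among open circles that are as low as it is, while others of like length lie near 0.

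Levels between the genes can be compared per kilobase of transcript. In the control group Cry1 stood highest, at 426 ± 17.3 normalized counts per kilobase, then Per1 at 383 ± 64.6, a gap smaller than the spread of Per1. Arntl followed at 234 ± 7.70, Cry2 at 193 ± 9.79 and Nr1d2 at 160 ± 21.3, then Clock at 90.1 ± 10.8. Dbp (70.6 ± 9.11), Nr1d1 (67.8 ± 6.25) and Per2 (61.9 ± 5.17) lay within their spread of each other, and Per3 was last at 12.8 ± 2.45. In the deleted group Per1 (381 ± 25.5) and Cry1 (378 ± 23.6) were level, and Dbp (88.6 ± 12.8) stood above Clock (67.3 ± 10.2). The levels per kilobase are not corrected for the length slope. After the length and GC correction Clock differed by -0.02 and Dbp by 0.06 between the groups, neither called. Per kilobase of the longest coding transcript, these leukemic spleens held more Arntl than Clock, and more Nr1d2 than Nr1d1. The order of Arntl and Clock rests on that length. In counts the mean ratio of Clock to Arntl was 1.26 ± 0.171 in control and 1.07 ± 0.119 in deleted libraries. Which transcripts of each gene were expressed was not tested.

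**Figure D5:**
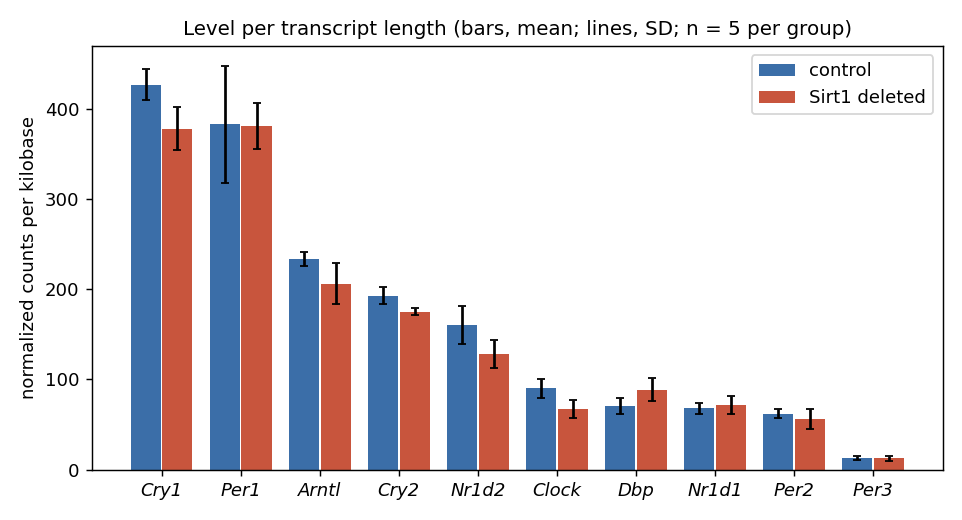
Normalized counts per kilobase of the longest coding transcript (bars, group mean; lines, SD, n = 5), control in blue and Sirt1 deleted in red, ordered by the control level. Cry1 and Per1 are highest and Per3 is lowest in both groups.

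Within groups the members differed in spread. This spread includes counting error, largest for Per3, and the length slope of each library, and how tightly a gene is controlled was not tested. The SD of log2 values within groups was 0.06 for Cry2 and 0.08 for Cry1, 0.11 for Arntl, and between 0.17 and 0.20 for Nr1d1, Nr1d2, Per1, Per2, Dbp and Clock. It was 0.34 for Per3, and 0.15 for the median of all genes tested, which were not matched for level. Single libraries stood out across members. Sirt1 deleted library 5, which has the steepest length slope, was the lowest of all 10 in Clock, Arntl, Per2, Per3 and Nr1d2, yet second highest in Dbp. Sirt1 deleted library 1 was the highest of all 10 in Per2, Nr1d1 and Dbp, while it ranked 5 to 8 from the top in the other 7 members.

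After subtraction of the group means, the pairs that varied most alike over the 10 libraries were Clock with Nr1d2 (Pearson r 0.79) and Per3 with Nr1d2 (0.73). The pair most opposed was Per1 with Nr1d1 (-0.58). Arntl, which REV-ERB represses, was at 0.32 with Nr1d1 and 0.20 with Dbp. These are descriptions without a test, over points that share library, depth and length slope. Among 9938 genes with a mean of at least 100, the most like Clock were Arid4a (0.99), Ccdc15 (0.99) and Baz1b (0.99), the most like Nr1d1 were Pcsk7 (0.97), Mfng (0.95) and Ggta1 (0.93), and the most like Dbp were Ccnd3 (0.93) and Chst2 (0.92). For Arntl they were Sun2 (0.93), Ppm1k (0.93) and Dffb (0.92), and for Cry1 N4bp3 (0.90), Hip1r (0.86) and Rhbdd2 (0.86). Of the 30 most alike genes of the 10 members, 0 were members or on a clock, glucocorticoid or CREB list. Each named gene was picked for a high r among 9938 over 10 libraries, so its r does not mark it as a partner.

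Around the core loop, 44 further genes of the clock pathway were tested. Of these 16 fell, 1 rose and 27 did not pass, with a median log2 difference of -0.14. After the length and GC correction 3 were called higher and 1 lower, and the median was -0.04. For all genes tested the shares were 17.5% lower and 14.5% higher, and in the quintile of longest transcripts 51% were called lower. Of the further transcription factors of the loop, among them Arntl2, Tef, Nfil3, Bhlhe40, Bhlhe41 and Ciart, 0 of 8 were called in limma (0 at an unadjusted p under 0.05). Of those 8 only Tef was called after correction.

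Of 11 kinases and phosphatases of clock proteins, 4 fell, 1 rose and 6 did not pass, with a median of -0.18. Prkaa2, a catalytic subunit of the AMP-activated kinase that marks CRY1 for degradation, fell from 307 ± 45.2 to 169 ± 25.4 (log2 difference -0.86, SE 0.135, limma adjusted p = 0.00797), and after correction it stood at -0.48, still called (limma adjusted p = 0.0121). Ppp1cb, a catalytic subunit of protein phosphatase 1, fell by 0.65 (corrected -0.35, not called), Gsk3b by 0.47 (corrected -0.11, not called) and Prkaa1 by 0.30 (corrected -0.08, not called). Csnk2b, the regulatory subunit of casein kinase 2, rose by 0.24 and stood at -0.02 after correction. Csnk1d and Csnk1e, the kinases that set the pace of the Period proteins, did not pass (-0.11 and -0.10).

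Of 6 ubiquitin ligases and proteases, 3 fell, 0 rose and 3 did not pass. Among them Fbxw11 fell by 0.31 and Usp7 by 0.19. Btrc, which with Fbxw11 targets Period proteins, did not pass (0.06), and after correction 0 of the 6 were called in limma (2 at an unadjusted p under 0.05).

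Of 15 coregulators, 8 fell, 0 rose and 7 did not pass, with a median of -0.21. Ncor1, the corepressor that REV-ERB recruits, fell from 13210 ± 1649 to 9090 ± 1555 (-0.55, SE 0.118, limma adjusted p = 0.00902), with no overlap. Hdac3, the deacetylase in the same complex, did not pass (0.12, limma adjusted p = 0.0967). The acetyltransferase genes Crebbp (-0.56), Ep300 (-0.49) and Kat2b (-0.24) and the demethylase gene Kdm5a (-0.54) fell as well. Kmt2a, Ddb1 (-0.21) and Cul4a (-0.32) were the other 3 that fell. Transcripts of the 8 ran from 3728 bases for Cul4a upward. After correction 0 of the 15 were called in limma (8 at an unadjusted p under 0.05), with Ncor1 at -0.19 (limma adjusted p = 0.0509) and Crebbp at -0.22 (limma adjusted p = 0.0514).

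Of 8 tested output genes of the clock, 1 fell and 7 did not pass. Nampt, the rate-limiting enzyme of NAD salvage and so a link from the clock to SIRT1, fell from 2286 ± 172 to 1845 ± 361 (-0.33, limma adjusted p = 0.0495) and was not called after correction (-0.12). Wee1 (-0.26), Klf10 (-0.10) and Usp2 (-0.07) did not pass. Noct, a phosphatase with a daily rhythm, did not pass in the deposited values (-0.10) and was called higher after correction (0.28, limma adjusted p = 0.0399), as were Tef (0.19, limma adjusted p = 0.0424) and the kinase gene Csnk2a2 (0.34, limma adjusted p = 0.0122).

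Per1 is also induced outside the loop, by glucocorticoids and by CREB. Of 8 glucocorticoid-induced genes, 1 fell (Sgk1, from 896 ± 117 to 686 ± 81.2, -0.38, limma adjusted p = 0.0176; corrected -0.34, still called), and Fkbp5 (-0.14), Tsc22d3 (0.10), Klf9 (-0.45) and Per1 did not pass. Of 6 genes of the CREB-driven immediate early list, 2 rose, Junb by 0.41 (limma adjusted p = 0.0295) and Nr4a1 by 0.35 (limma adjusted p = 0.0457), neither of them called after correction. Fos, at 20.3 and 15.2 on average, Egr1 (0.09), Crem (0.25) and Per1 did not pass.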

How the data were processed

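Strand-specific libraries of total RNA from 10 spleens were compared, 5 per group. Per the submitters' processing notes, the authors used kallisto 0.44.0 and DESeq on mm10. The authors deposited the signal as normalized counts, 1 column for each library, and 0 columns were left out. Annotation, gene filter, transcript-to-gene step and counting by strand are not given in the sources used here. The values are not whole. Of low ones 81.4% to 90.6% lie within 0.1 step of a multiple of the library's step, so most sit on the step and the rest do not. Read counts could therefore not be recovered for every gene, and no count model was fitted.

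Genes with at least 5 libraries at 10 or more entered limma 3.58.1 (limma-trend, R 4.3.3) on the log2(value + 1) scale without covariates, and p-values were adjusted over all genes tested. Exact permutation tests were two-sided and complete. GENCODE M21 (GRCm38) gave positions and the longest coding transcript, or the longest of any kind for genes without one, known for 13304 genes tested. The correction subtracted natural splines (5 degrees of freedom) on log2 length and GC content, fitted per library to deviations from gene means. Promoters came from RefSeq. Replicate numbers follow accession order and pair nothing. Members, lists and alternatives were chosen with earlier results of these data known. Named were the members, called pathway genes changed by at least 0.5, the smallest p in each list, and the 3 most alike genes for each member; others were named after their values were seen, and some genes under this rule are not reported here. The limma fit and the correction were tested on simulated data. Python 3.11.15 with pandas 2.3.3, numpy 2.4.6 and matplotlib 3.10.9 made tables and figures.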

Additional observations from a re-analysis of the deposited data

Results flagged for a closer look

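Of 20 groups of 5 libraries looked at, 2 held a library far from the others, where chance gives about 1 in 20. Per2 was 439.9 in Sirt1 deleted library 1, and the gap to the next library was 0.793 of the range of the group. Cry1 was 1381.1 in control library 4, with a gap of 0.756 of the range. Without that library the log2 difference of Cry1 was -0.15 and did not pass in limma (adjusted p = 0.0972).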

How the results depend on the processing

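Clock, Cry1 and Nr1d2 were each called with pseudocounts of 0.5 and 5, without the filter, with a minimum of 50, with equal totals and with robust limma; with TMM factors and with quantile normalization 2 members were called, and with array weights 4. The number of genes called, 4344 in the analysis reported, was 1 when B cell markers entered as covariate (3012 at an unadjusted p under 0.05 in limma), 0 with the macrophage and neutrophil markers (3338 unadjusted), 1911 after the length and GC correction, 0 when the length slope did (589 unadjusted) and 3 without the 3 libraries of steepest slope (3159 unadjusted). The number of clock genes called was 0 in each of these 5 settings, with 3, 2, 1, 0 and 3 at an unadjusted p under 0.05. Leaving out 1 library at a time gave 2200 to 4712 genes and 1 to 5 clock genes.

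With the length slope in the model, the log2 difference reversed for Clock (0.0786), Nr1d2 (0.0246), Per2 (0.0276) and Per3 (0.4504). After the length and GC correction it reversed for Per2 (0.0483), Per3 (0.1686) and Nr1d1 (-0.0018). With the B cell markers it reversed for Per3 (0.2259) and Nr1d1 (-0.0522), with the macrophage and neutrophil markers for Per3 (0.0991) and Nr1d1 (-0.1556), without the steepest libraries for Per3 (0.1382) and Nr1d1 (-0.0034), and with equal totals for Per1 (-0.003). Without 1 library, Per1 ranged from -0.0577 to 0.0887, Per3 from -0.1799 to 0.054 and Nr1d1 from -0.0005 to 0.1413. The cause was not tested. No paired analysis was possible because the replicate numbers only follow accession order. Counting error limits Per3, Dbp and Nr1d1 most.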
